A study of Mus musculus with 10 samples.

Results

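The 9 genes described here make up the core of class II antigen presentation: H2-Aa, H2-Ab1, H2-Eb1, Cd74, Ciita, H2-DMa, H2-DMb1, H2-DMb2 and Ctss. They were chosen by name, from a list, with earlier results of these data known. These are 9 of the 29972 genes with values. They were followed in 10 RNA-seq libraries of cells sorted from mouse liver: hepatocyte-derived peripheral cholangiocytes, called HpC (4 libraries), ordinary peripheral cholangiocytes, pC (3 libraries), and hepatocytes, H (3 libraries). Cholangiocytes form the epithelium of the bile ducts, and HpC are duct cells that arose from hepatocytes. HpC and H came from mice of the genotype Alb-Cre+/-;Rbpjf/f;Hnf6f/f, in which the albumin promoter drives Cre in hepatocytes and their precursors, where it acts on floxed Rbpj and Hnf6 (Onecut1). The mice of pC were Rbpjf/f;Hnf6f/f, so that every group carried the floxed alleles and pC alone lacked Cre. No treatment is given, the background was a mix of C57BL/6, FVB and CD1, and the ages ran from P119 to P151 (postnatal days). No age recurs within HpC or within pC. H2, H3 and HpC4 are all of P139, and whether any of them share an animal is not given, so the spread between H2 and H3 may be technical.

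Class II molecules are pairs of an alpha and a beta chain that show peptides from endocytosed proteins to CD4+ T cells. The invariant chain, Cd74, occupies their groove until proteases such as cathepsin S (Ctss) trim it away. H2-DM, a class II-like pair, then exchanges the remaining fragment for a peptide. Transcription of the set depends on the coactivator Ciita, which does not bind DNA itself but sits on factors at a shared X-Y promoter module, and interferon-gamma induces Ciita, in part through Irf1. Dendritic cells, B cells and macrophages carry class II constitutively. Epithelial cells, bile duct cells included, can acquire it in inflammation.

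The X-Y module, or a part of it, can be read in the promoters of several members. Shown are stretches with a match to any motif searched. The Ctss stretch holds neither box, and the H2-DMb1 stretch ends before its Y box. Windows from 250 bases before to 50 after the RefSeq start site (build GRCm38.p6) were at hand for 6 of the 9 genes, with 7 windows in all. Each line gives a stretch 5′ to 3′ on the strand of the gene, with matches in capitals.
H2-Eb1: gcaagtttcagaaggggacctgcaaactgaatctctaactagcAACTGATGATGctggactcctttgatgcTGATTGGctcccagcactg
H2-DMb2: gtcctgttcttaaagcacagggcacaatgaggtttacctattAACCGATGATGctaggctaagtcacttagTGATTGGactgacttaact
H2-DMb1: tttacctagtAACTGATGATGctaggctga
H2-Aa: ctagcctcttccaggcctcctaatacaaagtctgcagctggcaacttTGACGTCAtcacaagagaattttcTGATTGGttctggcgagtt
Ctss: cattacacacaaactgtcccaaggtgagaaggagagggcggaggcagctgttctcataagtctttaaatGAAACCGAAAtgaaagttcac
They lie at chr17:34305735-34305824 (plus strand), chr17:34145086-34145175 (plus), chr17:34153089-34153118 (plus), chr17:34287855-34287944 (minus) and chr3:95526696-95526785 (plus), in the order of the lines. In GENCODE M21 the H2-DMb1 stretch falls inside the first exon of H2-DMb1-201, which starts further upstream than the RefSeq start.

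Searched on both strands, the Y box TGATTGG was found upstream of H2-Aa, H2-Eb1, H2-DMb1 and H2-DMb2, against 7.82% of all 32851 windows of the same length. The end of the X1 box, AACN followed by GATGATG, was found in H2-Eb1, H2-DMb1 and H2-DMb2, against 0.0609% of windows (20 windows). It preceded the Y box by 17 bases in H2-Eb1 and by 18 in H2-DMb1 and H2-DMb2, and no other window held both on the strand of the gene within 30 bases. H2-Aa held the cyclic AMP element TGACGTCA, present in 1.79% of windows. The Ctss window held neither box, but an interferon element, GAAA, any 2 bases and GAAA, found in 3.44% of windows. No motif searched was found in the windows of H2-DMa. The motif letters were chosen with these promoters known, and a match is a description of the letters only.

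**Figure D1:**
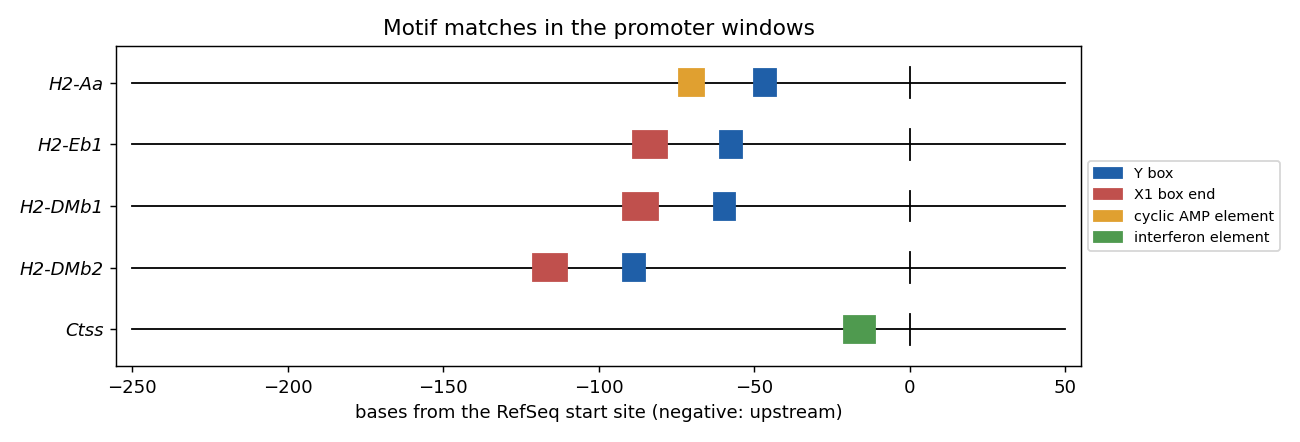
Matches to the searched motifs in the promoter windows of 5 members. The x axis gives bases from the RefSeq start site (vertical tick), each line is 1 gene, and coloured boxes mark matches; the Y box follows the X1 letters by 17 or 18 bases in H2-Eb1, H2-DMb1 and H2-DMb2.

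Values are TPM, an abundance corrected for transcript length and scaled to the same total in each library, so the depth is unknown and an exact 0 may be a failed estimate. Between 10232 and 14489 genes reached 1 TPM per library. HpC1 and HpC2 stood apart: the pancreatic elastase gene Cela2a was at 29691 TPM in HpC1 and at most 270.0 elsewhere, and the squamous keratin gene Krt13 at 36853 TPM in HpC2 and at most 6.86 elsewhere. Counts of members are therefore also given without both, and calls that end without both are named. The duct marker Epcam was at 101 to 179 scaled TPM in HpC, 143 to 155 in pC and at most 0.433 in H. Scaled TPM are TPM divided by a factor per library that evens out the bulk of genes.

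Class II genes were lower in HpC than in pC, and nearly absent from H. Of the 9 members, 8 fell in HpC against pC (limma adjusted p under 0.05, adjusted over all 14765 genes tested), none rose, and Ctss did not pass. Over all genes tested, 2.55% were called lower in HpC, 1.99% higher, and 4.54% in either direction. The median difference of the members was -2.39 on the log2 scale, against -0.01 over all genes. The same 8 members did not overlap between the groups, every HpC library lying below every pC library, against 9.72% of all genes. Because the members were chosen with earlier results of these data known, the shares set against all genes are a description. One of them, Ciita, passed the filter of 1 TPM in 3 libraries only through pC, where it is high, so a difference there had to appear. Without Ciita the count is 7 of 8. Without HpC1 and HpC2, 7 of the 9 were called, H2-DMb2 being the one lost. Here as elsewhere in sorted bulk samples, fewer cells carrying a transcript and less of it per cell cannot be told apart. The origin of the cells and the Cre genotype of the mice coincide in HpC against pC and cannot be told apart either. Cell type and Cre genotype coincide in the same way in pC against H.

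**Figure D2:**
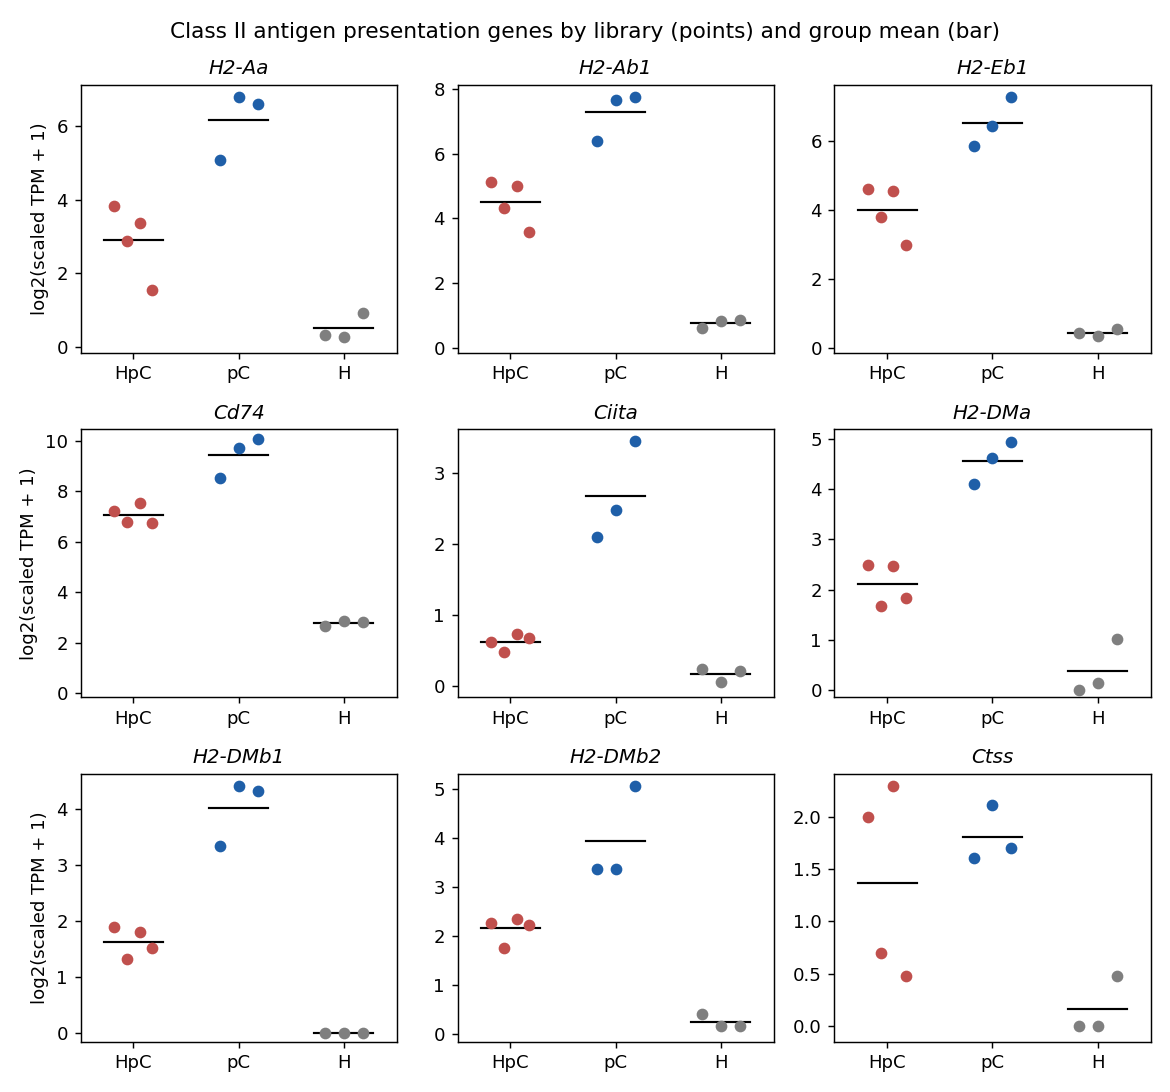
Level of each member as log2(scaled TPM + 1) by library. Points are libraries and bars are group means; in 8 of 9 panels all 4 HpC points lie below all 3 pC points, and in the Ctss panel they overlap.

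Among the class II chains, H2-Ab1, the beta chain of the A molecule (ENSMUSG00000073421, mm10 chromosome 17, 34257689 to 34269419, plus strand), was at 34.2, 19.2, 31.2 and 10.9 scaled TPM in HpC1 through HpC4. In pC1 through pC3 it was at 82.9, 203.9 and 217.6, and in H1 through H3 at 0.517, 0.789 and 0.826. The highest HpC library was thus below the lowest pC library, and pC1 lay well under the other 2 pC libraries. The log2 difference of HpC from pC was -2.77 ± 0.42 (SE; limma adjusted p = 0.00521), with group means of 23.9 ± 10.8 (SD, n = 4) and 168 ± 74.2 (n = 3), a ratio of 7.04.

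H2-Aa, the alpha chain that pairs with H2-Ab1 (ENSMUSG00000036594, chromosome 17, 34282744 to 34287823, minus strand), had the lowest log2 difference of the members, though Ciita had the higher ratio of means (10.7 against 10.3). It was at 13.3, 6.31, 9.29 and 1.95 scaled TPM in HpC1 through HpC4 and at 32.8, 109.8 and 96.5 in pC1 through pC3. HpC4 was the lowest of the cholangiocyte libraries for this gene, as it was for H2-Ab1 and H2-Eb1. The log2 difference was -3.25 ± 0.55 (SE; limma adjusted p = 0.00879), the sixth lowest of the 14765 genes. Without pC2 it was -2.93 and no longer passed (adjusted p = 0.0523). H2-Aa in H1 through H3 was at 0.261, 0.199 and 0.909 scaled TPM.

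H2-Eb1 encodes the beta chain of the E molecule (ENSMUSG00000060586, chromosome 17, 34305867 to 34316674, plus strand). It was at 23.6, 13.0, 22.4 and 6.90 scaled TPM in HpC1 through HpC4, at 56.9, 86.0 and 156 in pC1 through pC3, and at 0.334, 0.255 and 0.466 in H1 through H3. The log2 difference of HpC from pC was -2.54 ± 0.42 (SE; limma adjusted p = 0.00811). Its order of libraries within HpC was that of the A chains, HpC1 and HpC3 above HpC2 and HpC4. The alpha chain gene of the E molecule, listed as the pseudogene H2-Ea-ps, was at 0 in all libraries but pC2, where it was at 1.56 scaled TPM. C57BL/6 mice are known to lack a working E alpha chain.

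Cd74, the invariant chain (ENSMUSG00000024610), was the most abundant member in every library. It was at 150, 110.1, 184 and 106 scaled TPM in HpC1 through HpC4 and at 371, 849 and 1083 in pC1 through pC3. In H1 to H3 it was at 5.39, 6.24 and 6.01, the one member at 1 TPM or more in all 10 libraries. The log2 difference of HpC from pC was -2.37 ± 0.34 (SE; limma adjusted p = 0.00376), a ratio of means of 5.58. HpC libraries were closer together for Cd74 than for the chains.

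H2-DM exchanges peptides in the endosome. Its alpha chain gene H2-DMa (ENSMUSG00000037649, chromosome 17, 34119541 to 34139101, plus strand) was at 4.59, 2.17, 4.51 and 2.55 scaled TPM in HpC1 through HpC4. In pC1 through pC3 it was at 16.2, 23.6 and 29.9, and in H1 through H3 at 0, 0.0920 and 1.01. Every HpC library was far below the lowest pC library, and H1 and H2 were at or near 0. The log2 difference was -2.45 ± 0.32 (SE; limma adjusted p = 0.00272). With a pseudocount of 0.1 in place of 1 it was -2.74 and did not pass (adjusted p = 0.0703).

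The beta chain of H2-DM has a pair of neighbouring, near-identical genes. H2-DMb1 (ENSMUSG00000079547, chromosome 17, 34153072 to 34160230, plus strand) was at 2.73, 1.498, 2.496 and 1.85 scaled TPM in HpC1 through HpC4, at 9.11, 20.1 and 19.0 in pC1 through pC3, and is listed at 0 in every H library. H2-DMb2 (ENSMUSG00000037548, chromosome 17, 34143307 to 34151555, plus strand) was at 3.85, 2.41, 4.13 and 3.72 in HpC1 through HpC4, at 9.39, 9.36 and 32.5 in pC1 through pC3, and at 0.339, 0.126 and 0.117 in H1 through H3. For H2-DMb2, pC3 stood far above the other pC libraries, while the HpC libraries were closer together. For H2-DMb1 both groups were spread, with HpC2 lowest in HpC and pC1 lowest in pC.

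H2-DMb1 differed between HpC and pC by a log2 value of -2.39 ± 0.26 (SE; limma adjusted p = 0.0012), and H2-DMb2 by -1.78 ± 0.38 (adjusted p = 0.0254). The H2-DMb2 call ended when HpC2 (adjusted p = 0.0592), HpC3 (0.0564) or both HpC1 and HpC2 (-1.62, adjusted p = 0.129) were left out, with no filter (0.0530), and with only the groups compared in the fit (0.0755). The transcripts H2-DMb1-201 and H2-DMb2-201 were identical at 93.9% of 1255 aligned bases, with an identical run of 221 bases. Of the 31-base words of H2-DMb1-201, 37.6% also occur in H2-DMb2, so reads of 50 bases can be split between the genes and their separate values are uncertain. H2-DMb2 took 58.5% to 66.8% of the pair in HpC and 50.7%, 31.8% and 63.2% in pC1 through pC3. Summed as 1 feature the pair differed by -2.26 ± 0.30 (limma adjusted p = 0.00308).

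Ctss, the cathepsin that trims the invariant chain (ENSMUSG00000038642, chromosome 3, 95526786 to 95556403, plus strand), was the exception. It was at 3.00, 0.622, 3.91 and 0.392 scaled TPM in HpC1 through HpC4, at 2.04, 3.34 and 2.26 in pC1 through pC3, and at 0, 0 and 0.394 in H1 through H3. HpC1 lay within and HpC3 above the pC libraries, while HpC2 and HpC4 lay below all of them. The log2 difference of HpC from pC was -0.44 ± 0.43 (SE; limma adjusted p = 0.641), with a 95% interval from -1.39 to 0.51, which does not show that the groups are alike. HpC1 and HpC3 were also the HpC libraries with the most transcripts of leukocytes. The sum of 5 general leukocyte genes was 3.996, 1.92, 7.21 and 0.598 scaled TPM in HpC1 through HpC4, and its part in the Ctss level was not tested.

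Ciita, the coactivator of the set (ENSMUSG00000022504, chromosome 16, 10480059 to 10528418, plus strand), was low throughout. It was at 0.539, 0.395, 0.671 and 0.595 scaled TPM in HpC1 through HpC4, at 3.27, 4.57 and 9.86 in pC1 through pC3, and at 0.183, 0.0496 and 0.158 in H1 through H3. No HpC library reached 1, and the lowest pC library was above all of them. The log2 difference of HpC from pC was -2.04 ± 0.28 (SE; limma adjusted p = 0.00323), on a scale that understates changes of genes this low. Ciita passed the filter only through pC, where it is high, so a difference had to appear and its p-value is a description. The means were 0.550 ± 0.117 (SD, n = 4) and 5.90 ± 3.49 (n = 3), a ratio of 10.7. Within pC, pC3 was highest and pC1 lowest for Ciita, as for H2-Ab1, H2-Eb1, Cd74 and H2-DMa.

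The Ciita values rest on 1 transcript. GENCODE M21 lists 8 transcripts of the gene, and only Ciita-201, of 6007 bases, has values in these tables. Its start site lies at position 10488279. Ciita-205, Ciita-206 and Ciita-207 start 8115 to 8220 bases upstream of it, Ciita-202 starts 101 bases upstream, and Ciita-203, Ciita-204 and Ciita-208 start 1467 to 1504 bases downstream. Ciita is known to be read from alternative promoters with different first exons in different cell types. Which of them was used cannot be told from these values. Of the 31-base words of Ciita-201, 0.637% occur in transcripts of other genes.

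Among the transcripts of all members, 21 had values and 14 passed the filter. Of these 8 were called lower in HpC than in pC and none higher (limma, adjusted over 35643 transcripts, of which 0.881% were called lower in HpC). The 8 were H2-Aa-201 (-3.54 ± 0.47), H2-Ab1-201, H2-Eb1-201, both main transcripts of Cd74, Ciita-201, H2-DMa-202 and H2-DMb1-201. Ciita-201 and H2-DMb2-202 reached 1 TPM in pC only, so a difference had to appear there, though H2-DMb2-202 was not called (-1.08, limma adjusted p = 0.133). Without Ciita-201 the count is 7 of 13, which still includes H2-DMb2-202 among the 13. H2-Aa was divided between H2-Aa-201, which took 30.4% to 60.2% of the gene in HpC and 44.3% to 75.0% in pC, and the shorter H2-Aa-204 (-2.45 ± 0.59, limma adjusted p = 0.0850). Of the 31-base words of H2-Aa-204, 96.5% also occur in another transcript, so this split is uncertain. The same share was 98.1% for H2-Aa-201, 97.1% for Cd74-201, 100% for Cd74-202 and 86.4% for H2-DMa-202. The separate values of these transcripts are therefore uncertain too. H2-DMa-202, annotated as a retained intron, took 40.4% to 68.4% of H2-DMa in HpC and 62.6% to 82.2% in pC. The coding transcript H2-DMa-201 alone did not pass (-1.67 ± 0.40, limma adjusted p = 0.0808).

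Both cholangiocyte groups lay above hepatocytes. All 9 members were higher in pC than in H (limma adjusted p under 0.05), where 31.1% of all genes were called higher in pC, and none of the 9 overlapped between the groups, against 37.1% of all genes. Of the members, 8 reached 1 TPM in no H library and so passed the filter only through cholangiocyte libraries (Ciita through pC alone), a choice that favours a difference from H. Cd74 is the member free of this, and the counts against H are a description. In HpC against H, 8 were higher and Ciita did not pass (0.45 ± 0.28, limma adjusted p = 0.182; 95% interval -0.16 to 1.07), with 30.7% of all genes called higher in HpC. Between HpC and H, 8 members did not overlap, against 31.6% of all genes, and Ctss overlapped. Without HpC1 and HpC2 the counts were 9 and 7. For Cd74 the differences from H were 6.67 ± 0.36 in pC (limma adjusted p = 2.47e-07) and 4.30 ± 0.34 in HpC, and for H2-Ab1 6.51 ± 0.45 and 3.74 ± 0.42. The Ctss call of HpC against H (1.21 ± 0.43, adjusted p = 0.0317) ended with HpC1, HpC3, H1 or H2 left out (up to 0.0876), with HpC1 and HpC2 both left out (0.0504), and with no filter (0.0626). For Ciita, HpC lay between the other groups, below pC, and its distance from H depended on the pseudocount (1.53, limma adjusted p = 0.0111 with 0.1). The comparisons share their groups and are not independent of each other.

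**Figure D3:**
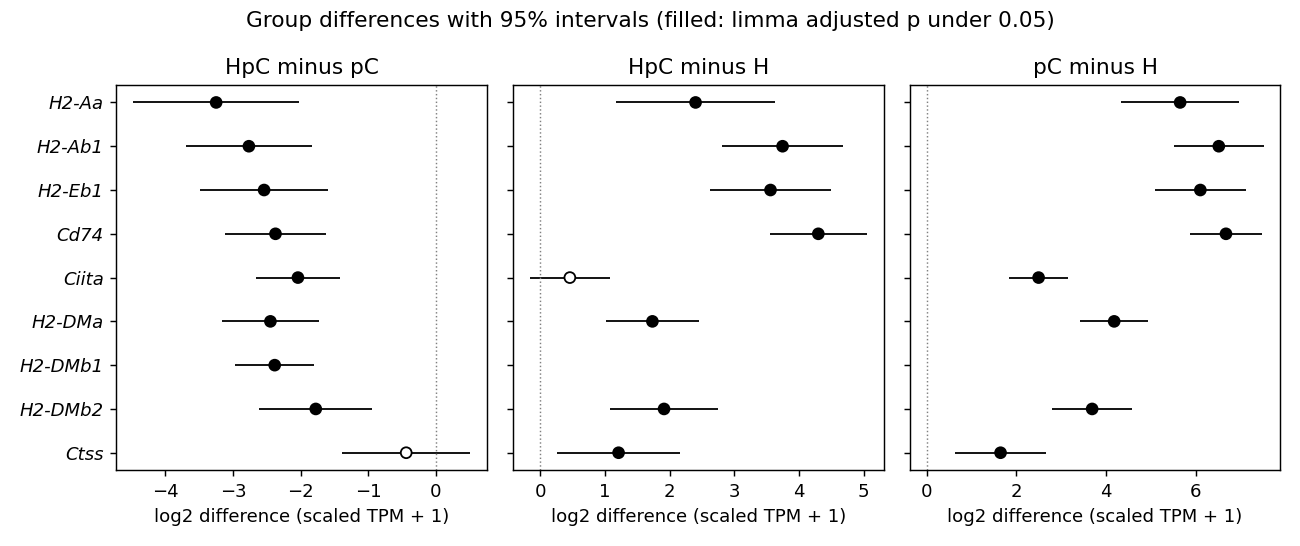
Differences between group means on the log2(scaled TPM + 1) scale for each member, in 3 comparisons, with 95% intervals from limma. Filled points passed at an adjusted p of 0.05; H2-DMb1 is left out of the comparisons with H, where it is listed at 0, and open points are Ctss in HpC minus pC and Ciita in HpC minus H.

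Within pC the members ranked, by mean scaled TPM, Cd74 (768 ± 363), H2-Ab1 (168 ± 74.2), H2-Eb1 (99.6 ± 50.9), H2-Aa (79.7 ± 41.2), H2-DMa (23.2 ± 6.86), H2-DMb2 (17.1 ± 13.4), H2-DMb1 (16.1 ± 6.05), Ciita (5.90 ± 3.49) and Ctss (2.55 ± 0.694), each as SD with n = 3. In HpC the order was Cd74 (138 ± 36.7), H2-Ab1 (23.9 ± 10.8), H2-Eb1 (16.5 ± 7.96), H2-Aa (7.71 ± 4.79), H2-DMb2 (3.53 ± 0.763), H2-DMa (3.46 ± 1.27), H2-DMb1 (2.14 ± 0.569), Ctss (1.98 ± 1.75) and Ciita (0.550 ± 0.117), n = 4. TPM is per length, so the order compares levels between genes. Of neighbours in these orders, Cd74 and H2-Ab1 did not overlap in either group, H2-Aa and H2-DMa did not overlap in pC, and the other neighbours overlapped between libraries. Read within each library, H2-Ab1 was above H2-Eb1 in every library of both groups. The same held in HpC for H2-Eb1 above H2-Aa and H2-DMa above H2-DMb1, and in pC for H2-DMb1 above Ciita and Ciita above Ctss. The remaining overlapping neighbours changed order between libraries. In H the order was Cd74 (5.88 ± 0.441), H2-Ab1 (0.711 ± 0.169), H2-Aa (0.456 ± 0.393), H2-DMa (0.368 ± 0.560), H2-Eb1 (0.351 ± 0.107), H2-DMb2 (0.194 ± 0.125), Ctss (0.131 ± 0.228), Ciita (0.130 ± 0.0710) and H2-DMb1 at 0, n = 3, and only Cd74 stood clear of the rest. The 9 members together made up 0.0891% to 0.261% of the TPM of a pC library, 0.0157% to 0.0380% of an HpC library and 0.000387% to 0.000498% of an H library.

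Ratios between members within a library do not depend on scaling. Of 7 ratios compared between HpC and pC, none passed (two-sided exact permutation tests over 35 splits, smallest possible p 0.0286), at an adjusted p or at an unadjusted p of 0.05. A single ratio at the smallest possible p could not pass after adjustment over 7, so the adjusted outcome does not show that the ratios are alike. Cd74 stood at 2.11 to 5.39 times the sum of the 3 chains in HpC and at 2.12 to 2.30 times in pC (exact permutation p = 0.2, adjusted p = 0.35). HpC4 alone was above 3. H2-Aa stood at 0.180 to 0.389 of H2-Ab1 in HpC and at 0.395 to 0.539 in pC, without overlap (log2 difference -0.66, exact permutation p = 0.0571, adjusted p = 0.2). Ctss stood at 0.0323 to 0.125 of H2-Ab1 in HpC and at 0.0104 to 0.0247 in pC, also without overlap and with the widest log2 difference of the 7, 1.89 (exact permutation p = 0.0571, adjusted p = 0.2). H2-Eb1 stood at 0.636 to 0.717 of H2-Ab1 in HpC, and at 0.687, 0.421 and 0.717 in pC1 through pC3, so that pC2 was the odd one. H2-DMa stood at 0.113 to 0.235 of H2-Ab1 in HpC and 0.116 to 0.196 in pC. Chain genes differ between mouse strains, the mice were of mixed strains, and which alleles each mouse carried is not given. The same limit holds for the levels of the chains.

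Markers of leukocytes, among them the cells that carry class II constitutively, were read in the same libraries. Of their tested genes, limma called 0 of 2 general leukocyte genes, 0 of 11 macrophage genes, and 0 of 1 each for dendritic, B, and T and NK cells between HpC and pC, and 0 of them had an unadjusted p under 0.05. The dendritic, B, and T and NK cell lists had only 1 gene each above the filter, so their counts can show little. The pan-leukocyte gene Ptprc was at 0 to 0.429 scaled TPM in HpC and 0.0594 to 0.421 in pC. The B cell gene Cd37 was listed at 0 in all libraries. The dendritic cell gene Itgax was at most 0.0997 in any library. The 14 macrophage genes summed to 18.2 to 50.9 scaled TPM in HpC and 30.4 to 43.3 in pC, which overlap. Csf1r took 9.63 to 24.9 of that in HpC and 12.4 to 16.8 in pC.

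The 5 general leukocyte genes summed to 0.598 to 7.21 scaled TPM in HpC and 1.09 to 3.76 in pC, and the 3 class II chains to 19.7 to 71.1 and 172 to 470.0. The leukocyte sums overlapped between the groups and the chain sums did not. HpC4 had both the lowest leukocyte sum and the lowest chain sum of its group. In pC the leukocyte sum was 1.09, 2.39 and 3.76 and the chain sum 172, 399.7 and 470.0 in pC1 through pC3, in the same order. The macrophage sum was ordered otherwise, at 35.4, 18.2, 50.9 and 31.1 in HpC1 through HpC4. In pC1 through pC3 the macrophage sum was 30.5, 43.3 and 30.4. The part of leukocytes in the difference between the groups, or in the spread within a group, was not tested. The 8 dendritic genes summed to 6.52, 3.19, 8.91 and 9.21 in HpC1 through HpC4, highest in HpC4. In pC1 through pC3 they summed to 6.95, 5.69 and 12.7. Most of this was Zbtb46, which endothelium also expresses. The 7 B cell genes summed to 44.7, 0.882, 44.9 and 0.660 in HpC1 through HpC4 and 13.4, 0.426 and 0.205 in pC1 through pC3, nearly all of the high values from Ighm. The 6 T and NK cell genes summed to 0.297 to 3.71 in HpC and 0.124 to 2.40 in pC. Liver endothelium, whose 6 genes summed to 4.83 to 15.7 in HpC and 6.18 to 9.32 in pC, had 0 of 5 tested genes called by limma and 0 at an unadjusted p under 0.05.

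**Figure D4:**
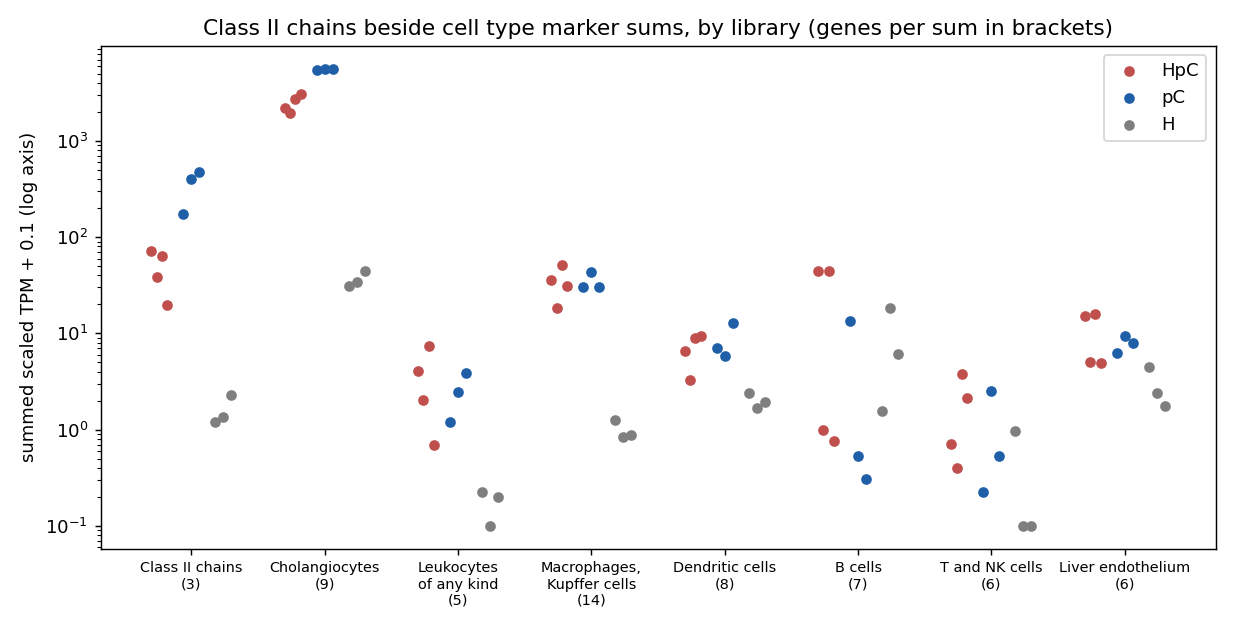
Summed scaled TPM (plus 0.1, log axis) of the 3 class II chain genes, of 9 cholangiocyte markers and of marker lists of other cells, by library. The class II chains separate HpC (19.7 to 71.1) from pC (172 to 470.0), and so does the cholangiocyte sum (1948 to 3043 and 5412 to 5621). The leukocyte and macrophage sums of the groups overlap.

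Cholangiocyte markers also stood beside the class II genes. Of 9, none were higher in HpC, 2 were lower and 7 did not pass, with a median of -0.05. Spp1, which encodes osteopontin, was among the lower ones (-2.21 ± 0.26, limma adjusted p = 0.00149). The 9 markers summed to 1948 to 3043 scaled TPM in HpC and 5412 to 5621 in pC, without overlap. Spp1 alone was at 593 to 1289 in HpC and 4056 to 4410 in pC. The 7 hepatocyte markers had 1 called higher in HpC, Serpina1a (2.45 ± 0.47, adjusted p = 0.0165, but 0.0924 with HpC1 and HpC2 left out and 0.0519 with only HpC and pC fitted), and a median of 0.96. Their sum was 3032 to 5658 scaled TPM in HpC, 942 to 2552 in pC and 76941 to 87660 in H. The part of the hepatocyte transcripts in the class II difference was not tested.

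The other genes of class II loading were mostly not called. Of a list of 15, 9 were tested, 1 was higher in HpC, none was lower and 8 did not pass, with a median log2 difference of 0.30 against -0.01 for all genes. The one was Ctsh, an aminopeptidase of the lysosome, at 64.4 ± 6.64 scaled TPM in HpC (SD, n = 4), 33.05 ± 10.9 in pC and 407 ± 30.3 in H (n = 3 each). Its difference from pC was 0.99 ± 0.21 (SE; limma adjusted p = 0.0283). It ended on TPM as deposited (0.58, adjusted p = 0.357), with HpC1, HpC3, pC2, pC3 or H2 left out (up to 0.0913), with HpC1 and HpC2 both left out (0.0667), with no filter (0.0581), and with only HpC and pC fitted (0.0735). The thiol reductase gene Ifi30, which unfolds proteins for loading, was at 9.96 to 19.0 in HpC and 8.73 to 13.5 in pC. The proteases Lgmn, Ctsl, Ctsb, Ctsd and Ctsf did not pass. H2-Oa and H2-Ob, which hold H2-DM in check in B cells, were under the filter, at no more than 1.54 scaled TPM in any library.

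Genes for the factors at the X-Y module came next. Of 11 genes tested, none was higher in HpC, 1 was lower and 10 did not pass (median -0.22). Rfx5, a subunit of the factor that binds the X box, was at 18.7 to 40.4 scaled TPM in HpC and 23.3 to 48.4 in pC. Nfya, which belongs to the Y box factor, was at 22.8 to 39.7 in HpC and 40.4 to 46.5 in pC (-0.53, limma adjusted p = 0.250). The lower one was Kat2b, an acetyltransferase, at 61.5 ± 14.9 in HpC (SD, n = 4) and 132 ± 31.2 in pC (n = 3; -1.10 ± 0.22 SE, adjusted p = 0.0191). With HpC3, pC1 or pC2 left out, Kat2b no longer passed (up to 0.0993), nor with HpC1 and HpC2 both left out (0.0684) or only HpC and pC fitted (0.0695).

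On the list for the interferon-gamma input to Ciita, 1 of 9 was higher in HpC, 2 were lower and 6 did not pass (median -0.02). Irf1, a transcription factor that interferon-gamma induces and 1 of the lower genes, was at 164, 123, 232 and 322 in HpC1 through HpC4 and at 454, 728 and 752 in pC1 through pC3 (-1.67 ± 0.33 SE, limma adjusted p = 0.0195). No HpC library reached the lowest pC library. Its call ended with pC2 or pC3 left out (up to 0.0976) and with HpC1 and HpC2 both left out (-1.16, adjusted p = 0.0804), as well as with only HpC and pC fitted (-1.64, adjusted p = 0.0562).

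The receptor gene Ifngr1 went the other way, at 131 to 197 scaled TPM in HpC and 92.0 to 123 in pC (0.75 ± 0.18 SE, limma adjusted p = 0.0408). This call held only with some settings: it ended on TPM as deposited (0.32, adjusted p = 0.590), with only HpC and pC fitted (0.103), and when any one library other than HpC2 or pC3 was left out (up to 0.188), yet it passed with HpC1 and HpC2 both left out (0.96, adjusted p = 0.0171). Jak1 (0.27) and Jak2 (-0.02), the kinases of the receptor, did not pass (adjusted p = 0.405 and 0.974). The costimulation list had 4 tested genes of 9 and no call (limma; 2 at an unadjusted p under 0.05, Cd40 and Cd274; median 0.18). Cd80 and Cd86, the ligands of Cd28 on T cells, were at most 0.228 and 0.539 scaled TPM in any library.

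**Figure D5:**
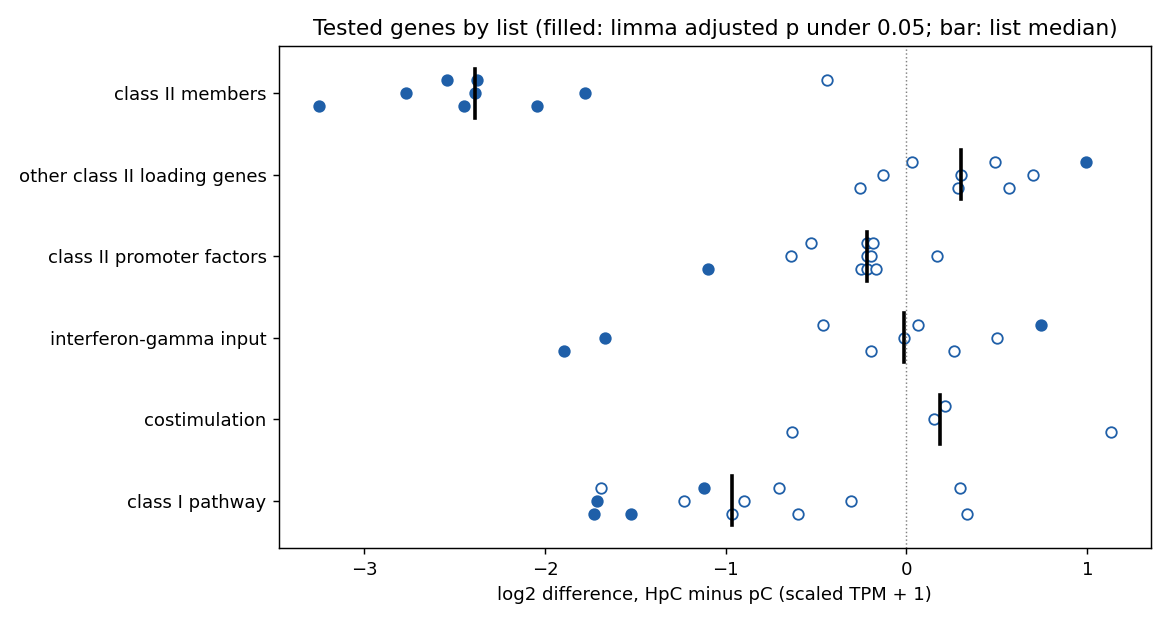
Log2 difference between HpC and pC of each tested gene of the members and of 5 related lists. Each point is a gene, filled where limma's adjusted p was under 0.05, and bars are list medians; the members centre on -2.39 and the class I list on -0.96, the other lists between -0.22 and 0.30.

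Class I presentation, which shows peptides from inside the cell to CD8+ T cells, was lower in part. Of 13 genes none was higher in HpC, 4 were lower and 9 did not pass, with a median of -0.96 against -2.39 for the class II members. The lower ones were the peptide transporter gene Tap1 (-1.53 ± 0.22, limma adjusted p = 0.00367), the immunoproteasome genes Psmb9 (-1.71 ± 0.22, adjusted p = 0.00254) and Psmb8 (-1.12 ± 0.20), and H2-K1 (-1.73 ± 0.42, adjusted p = 0.0467). H2-K1 was at 121 to 216 scaled TPM in HpC and at 325, 1355 and 466 in pC1 through pC3, so that pC2 stood apart. H2-K1 lost its call without any single library but pC1 (up to 0.102), with HpC1 and HpC2 both left out (0.211), with a pseudocount of 0.1 (0.0583), with no filter (0.0901) and with only HpC and pC fitted (0.126), and Psmb8 without the same pair (0.0601). Nlrc5, the class I counterpart of Ciita, was at 5.11 to 7.775 scaled TPM in HpC and 9.755 to 27.35 in pC (-1.23, limma adjusted p = 0.0735). In H, class I genes were expressed too. Of the 13, limma called 5 lower in HpC than in H and none higher, and 8 did not pass. B2m was among the lower ones, at 1516 to 2155 in H against 375 to 603 in HpC. H2-K1, at 153 to 183 in H, overlapped with HpC. The list difference between class I and class II genes was not itself tested.

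The 5 genes most like the class II pattern were sought by Pearson correlation with the mean log2 level of H2-Aa, H2-Ab1, H2-Eb1 and Cd74 over the 10 libraries. They were Mmp7 (0.98), Gm5431 (0.98), H2-M3 (0.98), Pla2g16 (0.98) and Tgtp2 (0.98). These points fall into 3 groups with one scaling per library, so the correlations mainly restate the group order, and over the 7 cholangiocyte libraries they were 0.94 to 0.98. Mmp7, a matrix protease of ducts, was at 25.9, 13.4, 12.5 and 14.2 scaled TPM in HpC1 through HpC4 and 31.4, 110.5 and 97.6 in pC1 through pC3. Tgtp2, an interferon-induced GTPase, was at 126 to 235 in HpC, 707 to 1158 in pC and 7.22 to 25.2 in H. H2-M3, a class I-like gene, was at 1.39 to 2.56 in HpC and 5.37 to 8.63 in pC. Among the members, the same measure was 0.87 for Ciita, 0.85 for Ctss and 0.96 to 0.98 for the H2-DM genes.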

How the data were processed

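RNA of 10 libraries was measured by single-end RNA-seq. The authors deposited 1 table of TPM per Ensembl transcript for each library, per the file headers; the submitters' processing notes name kallisto, DESeq and the mm10 build, with no versions or roles, and other steps are not given in the sources used here. TPM hold no depth, so no count test or counting error could be given. Of 85276 transcripts, 81927 matched GENCODE M21 (mm10) and were summed to 29972 genes; the unmatched held 4.22% to 9.06% of the TPM. Genes at 1 TPM or more in at least 3 libraries were kept (14765). TPM were divided by factors from a trimmed mean of log ratios (30% and 5% trimmed, no weights; 0.499 to 1.61). Groups were compared on log2(scaled TPM + 1), a pseudocount of 1, by limma 3.58.1 (R 4.3.3; the prior variance followed the mean level) in 1 fit of all libraries, with Benjamini-Hochberg adjustment over all genes; the choice of tests had allowed for counts too, and the limma route for normalised values was the one used. The script was tested on simulated data. The deviations of same-numbered libraries from their group means correlated at -0.05 to 0.08, so the numbers do not pair them. Named are all members, list genes past 5% in HpC against pC (some of which are not reported here) and the 5 genes most alike over the 10 libraries; a few list genes that did not pass (Ifi30, the proteases, H2-Oa, H2-Ob, H2-Ea-ps, Rfx5, Nfya, Jak1, Jak2, Cd80, Cd86, Nlrc5, B2m, Cd37) and Cela2a and Krt13 were added after their values were seen. The members and lists were chosen with earlier results of these data known. Tables and figures used Python 3.11.15, pandas 2.3.3 and matplotlib 3.10.9.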

Additional observations from a re-analysis of the deposited data

How the results depend on the processing

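Of 177 values of members in HpC against pC under the alternatives, 169 kept their side of the threshold, 8 lost it and none reversed. The 8 were 6 for H2-DMb2 and 1 each for H2-Aa and H2-DMa. The count of all genes called in HpC against pC, 671, was 393 with only the groups compared in the fit and 1797 with array weights; without single libraries it ran from 271 (without pC2) to 794 (without HpC4), and was 415 without HpC3, 330 without pC1 and 443 without pC3; the cause was not tested. Members called in HpC against pC were 6 (without pC2) to 8 without single libraries; without any single pC library Ciita fell under the filter and was not tested. With the replicate block, 573 genes and 7 members were called, H2-DMb2 being lost (-1.80, limma adjusted p = 0.0515), as were Ctsh, Ifngr1 and H2-K1 of the lists (0.0820, 0.0665 and 0.0888); the replicate numbers do not pair the libraries. With a library left out, the permutation tests of the ratios are too small to pass, so that only their direction can be read; without single libraries the log2 ratio H2-DMa/H2-Ab1 ran from -0.17 (without HpC4) to 0.26 (without pC1), with -0.12 without pC2, against 0.04 in the full data, and H2-Eb1/H2-Ab1 from -0.048 (without pC2) to 0.34 (without pC3), against 0.20. TPM carry no depth, so the values of H at or near 0 have no limit of detection.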
